A study of Homo sapiens with 16 samples.

Results

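The enzymes that add methyl groups to histones, remove them, or take acetyl groups off histones were examined as ribosome footprints under rocaglamide A (RocA), a plant-derived inhibitor of translation. The genes were taken by symbol, by a rule that uses no measured value but was set with earlier results of these data known: those starting KDM, KMT, SETD, HDAC, PRMT or SIRT, with EZH1, EZH2, NSD1, NSD2, NSD3, EHMT1, EHMT2, DOT1L and SUV39H1. The annotation holds 74 such coding genes in 11 families, of 19965 coding genes in all. Of these, 64 could be found in the files by their coding lengths, of 13408 genes found in all. HDAC6, HDAC8, KDM4A, KDM4D, KDM4E, KDM4F, KDM7A, PRMT6, PRMT8 and SIRT4 were not found and are not analysed here. With RocA, 59 of the 64 passed the filter on low counts, which needs about 13.8 CPM (counts scaled to a common library size), and KDM8, KMT5C, SETD4, SETD9 and SETDB2 did not. KDM5D is Y-linked and is counted but given no value, which leaves 63 genes with values, 58 of them tested with RocA.

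Histone methylation marks chromatin according to the residue and the histone that carries it. Methylation of H3K4 and H3K36 accompanies transcribed genes, that of H3K9 and H3K27 accompanies silenced ones, and lysine demethylases undo these marks. Histone deacetylases (HDACs) and the NAD-dependent sirtuins remove acetyl groups, which as a rule goes with repression, and many members also act on proteins other than histones. RocA clamps the RNA helicases eIF4A and DDX3 onto purine-rich RNA, so that the ribosome's scanning from the cap is blocked on some mRNAs more than on others.

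In ribosome profiling, the pieces of mRNA that ribosomes shield from RNase I are sequenced, so a gene's count follows the number of ribosomes on its coding sequence. The cells were 4 established human lines without a stated genetic change (labelled WT): NCI-H1650 and NCI-H520 from lung cancer, with A375 and Hs 936.T from melanoma. Each line was given DMSO, the solvent, or RocA at 0.3 µM or 3 µM for 30 min, with 2 DMSO libraries and 1 library at each RocA concentration per line, 16 in all. The lines therefore serve as the 4 replicates of a dose, a change in a single line has no replicate check, and nothing says whether the 2 DMSO libraries of a line came from separate cultures. No RNA libraries were used here, so more mRNA and more ribosomes per mRNA cannot be told apart, and CPM shows a gene's share of the footprints in a library and not the amount of translation.

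Footprints on all named genes numbered 722271 to 4087336 per DMSO library, 187801 to 731450 at 0.3 µM and 63191 to 375777 at 3 µM. A single footprint was worth 0.23 to 1.28 CPM in the DMSO libraries, but 12.7 CPM in NCI-H1650 at 3 µM, the shallowest library. The members with values had 195 footprints together in that library and 13950 in the deepest DMSO library. The NCI-H520 DMSO replicate 2 and 3 µM libraries carry the cell-line label NCI-H521 and were placed with NCI-H520 by their titles. The 8 pigment-cell markers found summed to 25550 and 26190 CPM in Hs 936.T with DMSO, to 30.3 and 43.7 CPM in A375, and to 842 and 2029 CPM in NCI-H520, which as a lung line should lack them; in NCI-H520 they summed to 265 CPM at 0.3 µM and 621 CPM at 3 µM. All 8 epithelial markers had footprints in every NCI-H1650 and NCI-H520 library, while the 5 squamous markers found summed to at most 7.42 CPM in any NCI-H520 library. The part of the pigment-cell signal in NCI-H520 in the results below was not tested.

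Under DMSO the members spanned a wide range of levels. Per coding length, PRMT1, the main enzyme of asymmetric arginine dimethylation, led in NCI-H1650, NCI-H520 and A375, with 1466 ± 19.8, 1885 ± 131 and 1458 ± 64.4 CPM per 1000 codons (SD, n = 2 each). In Hs 936.T, HDAC2 led with 1074 ± 69.3 CPM per 1000 codons, above PRMT1 at 804 ± 48.5 (SD, n = 2 each). HDAC2 and HDAC1 are closely related catalytic subunits of the Sin3, NuRD and CoREST repressor complexes. In A375 their levels, 527 ± 24.8 for HDAC2 and 564 ± 38.6 for HDAC1 (CPM per 1000 codons, SD, n = 2 each), did not differ beyond their spread. PRMT5, which makes symmetric arginine dimethylation, and KDM1A (LSD1), a demethylase of H3K4, were among the 6 highest members in each line. The very long KMT2 genes stood far lower, KMT2A at 8.91 ± 0.72 and KMT2D at 9.02 ± 0.34 CPM per 1000 codons in NCI-H1650 (SD, n = 2 each).

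**Figure D1:**
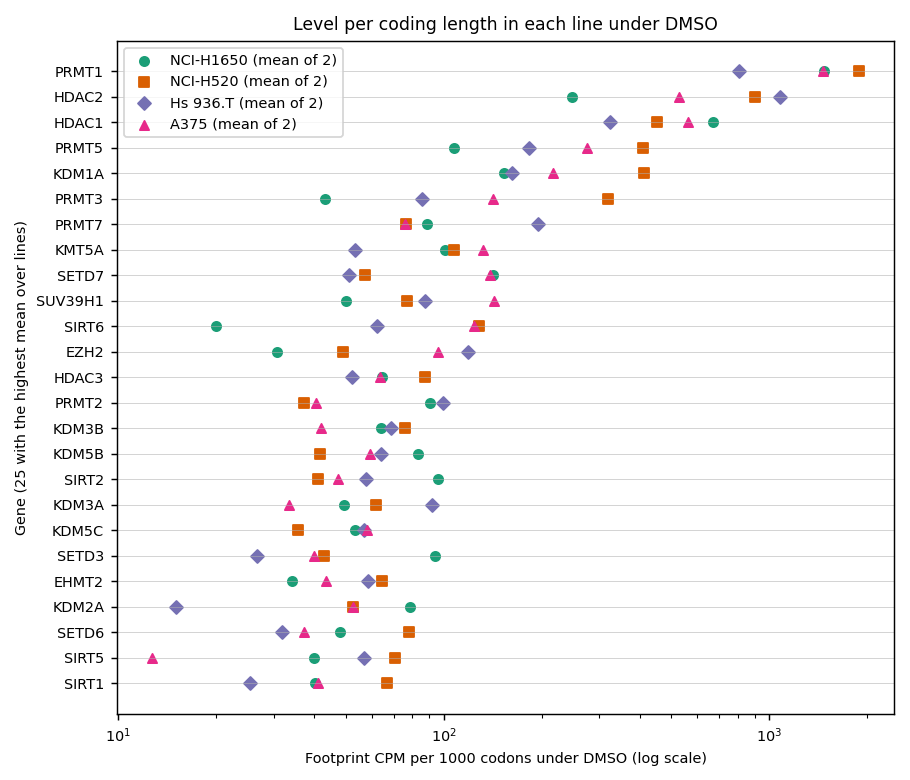
Footprint CPM per 1000 codons under DMSO (log axis) for the 25 members with the highest mean over lines, one row per gene. Each point is the mean of the 2 DMSO libraries of a line. PRMT1, HDAC2 and HDAC1 stand above the other members in the mean over lines, and HDAC2 spreads from 247 in NCI-H1650 to 1074 in Hs 936.T.

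Most members differed in level between the lines. In edgeR's quasi-likelihood F test over the 8 DMSO libraries, 55 of 63 tested members were called at an adjusted p under 0.05 (87.3%), and 91.2% of the 9402 genes tested were. In a single simulated data set the false calls of this F test were above the nominal level. KMT2C, KMT2E, EHMT1, EZH1, KDM2B, KDM5A, HDAC10 and PRMT9 were not called. Of the members with values, 27 had their highest mean in NCI-H520, 19 in NCI-H1650, 10 in Hs 936.T and 7 in A375.

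The smallest p-values were those of HDAC2, PRMT3, PRMT5, HDAC4 and KDM1A. HDAC2 was highest in Hs 936.T, at 514 ± 33.2 CPM, followed by NCI-H520 at 433 ± 40.4, A375 at 252 ± 11.9 and NCI-H1650 at 118 ± 28.0 (SD, n = 2 each; adjusted p = 4.9e-19). PRMT3, which methylates a small-subunit ribosomal protein, had 167 ± 6.31 CPM in NCI-H520 and 22.6 ± 13.8 in NCI-H1650, with 44.6 ± 2.37 in Hs 936.T and 73.8 ± 7.09 in A375 (adjusted p = 1.9e-15). PRMT5 had 256 ± 16.3 CPM in NCI-H520, 172 ± 0.10 in A375, 114 ± 3.33 in Hs 936.T and 67.5 ± 3.11 in NCI-H1650 (adjusted p = 6.1e-15), so its order of lines was that of PRMT3. HDAC4, a class IIa enzyme that shuttles between nucleus and cytoplasm, stood at 85.8 ± 0.016 CPM in NCI-H520 and 37.9 ± 7.82 in Hs 936.T (adjusted p = 9e-15). It had 9.53 ± 6.44 CPM in NCI-H1650 and 9.73 ± 3.63 in A375, which did not differ beyond their spread. KDM1A was highest in NCI-H520, at 347 ± 5.18 CPM, against 182 ± 7.97 in A375, 136 ± 7.73 in Hs 936.T and 128 ± 22.4 in NCI-H1650 (adjusted p = 1.5e-14). The last pair did not differ beyond their spread.

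The largest ratio between lines belonged to HDAC7, another class IIa enzyme, with 42.3 CPM in NCI-H1650 and 4.29 CPM in Hs 936.T, a ratio of 9.86. Its paralog HDAC9 was also lowest in Hs 936.T, at 3.30 CPM, but highest in NCI-H520, at 25.3 CPM. EZH2, the catalytic subunit of Polycomb repressive complex 2, had 87.1 ± 3.00 CPM in Hs 936.T and 70.5 ± 0.063 in A375, and 36.1 ± 5.82 in NCI-H520 and 22.7 ± 3.11 in NCI-H1650 (adjusted p = 2.1e-11). Its paralog EZH1 had 8.30 to 19.6 CPM in the line means and was not called (adjusted p = 0.12).

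With RocA at 0.3 µM, 11 members rose and 14 fell relative to DMSO, and 34 were not called. That is 18.6% of the 59 tested members rising and 23.7% falling, where the shares over all 7838 genes tested were 26.9% and 31.9%. At 3 µM, 9 members rose (15.3%) and 16 fell (27.1%), against 24.3% and 31.4% of all genes tested. In either direction 58.8% of all genes were called at 0.3 µM and 55.7% at 3 µM. Their median log2 change was -0.19 at 0.3 µM and -0.25 at 3 µM, with -0.09 and -0.17 over all genes. Of the 58 members with values, 10 were higher and 16 lower in all 4 lines at 0.3 µM, with 24.5% and 32.0% of all genes. At 3 µM 9 were higher and 18 lower in all 4 lines, with 19.0% and 33.8% of all genes. At 0.3 µM all RocA libraries lay above all DMSO libraries for 3 members (5.17%) and below them for 3 (5.17%). The shares over all genes were 5.72% and 8.7%. At 3 µM 0 members lay above and 2 below (3.45%), with 4.38% and 9.85% of all genes.

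EHMT1, EHMT2, KMT2A, KMT2B, KMT2D, PRMT5 and SETD6 rose at both doses. HDAC2, KDM1B, KDM2A, KDM5C, KDM6A, KMT5B, NSD3, PRMT1 and SIRT5 fell at both. Both doses are set against the same DMSO libraries, so the overlap carries no weight of its own. HDAC3, HDAC11, KDM5B and KMT2C rose and EZH2, HDAC9, KMT5A and PRMT9 fell at 0.3 µM alone by this threshold. SIRT3 rose and HDAC10, KDM3A, KDM3B, KDM4B, KDM4C, NSD2 and SIRT1 fell at 3 µM alone. SETD5 fell at 0.3 µM and rose at 3 µM. In simulated data the dose comparisons found 85.3% of planted log2 changes of 1 at 0.3 µM and 65.6% at 3 µM. Their false calls were 6.01% and 6.06% of calls, above the nominal level, from a single simulated set per comparison. A single set does not show whether that excess would recur. Few genes were changed in these sets, each by the same amount in every line, whereas most genes here were called at each dose. The rates in these data may therefore differ. Since planted changes were missed, a call at 1 dose alone does not show that the doses differ.

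**Figure D2:**
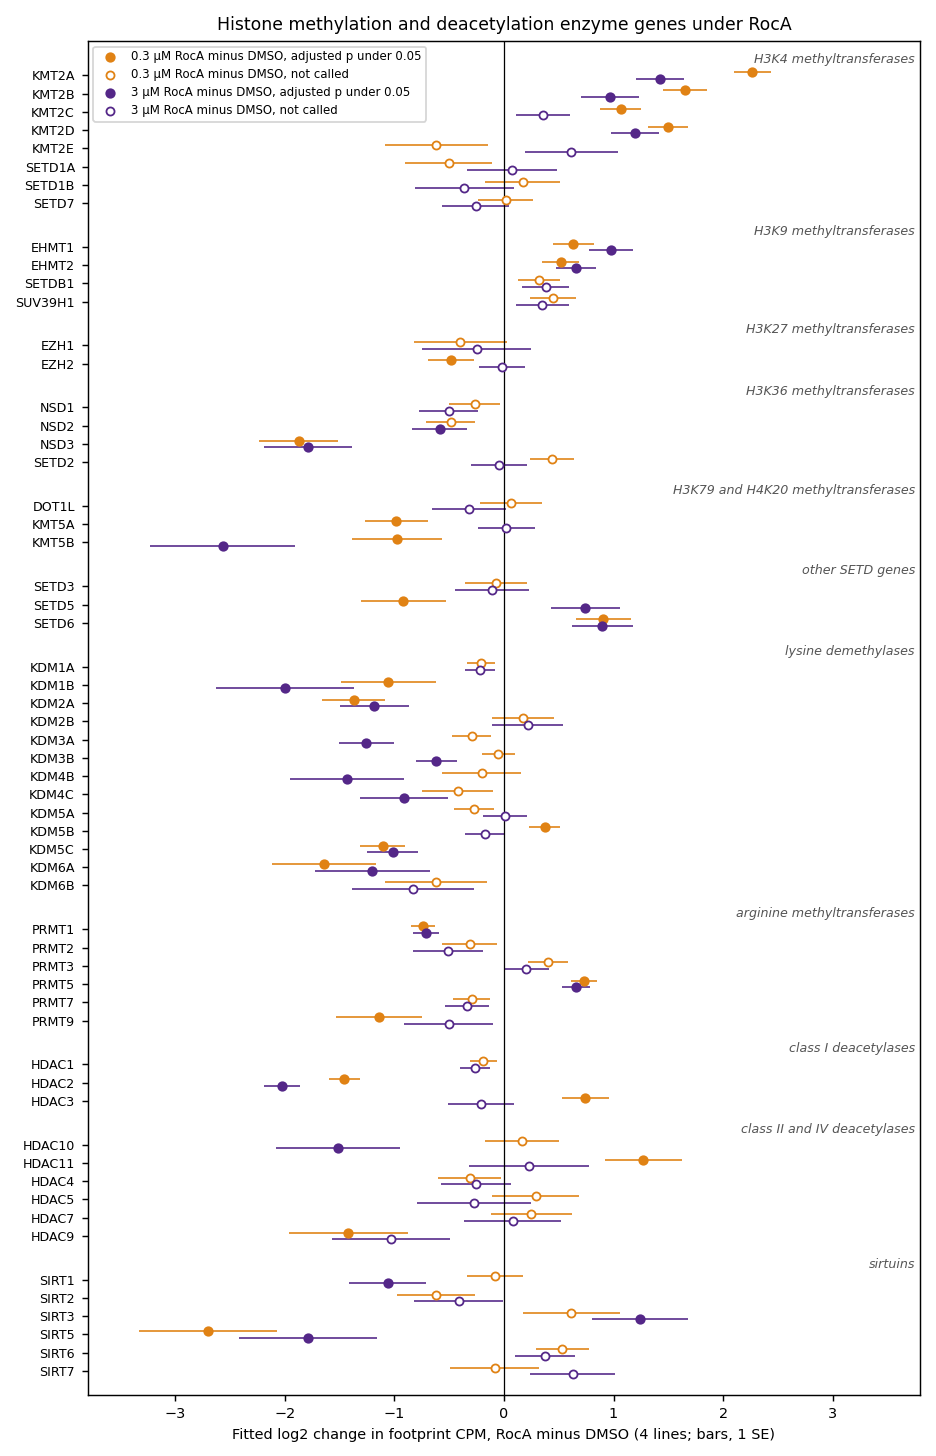
Fitted log2 change of each tested member with values, RocA minus DMSO, grouped by family, at 0.3 µM and 3 µM. Points are edgeR estimates over 4 lines and bars are 1 SE, with filled points called at an adjusted p under 0.05. KMT2A lies farthest to the right at both doses, SIRT5 farthest to the left at 0.3 µM and KMT5B at 3 µM.

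Of the H3K4 methyltransferases, 4 of 8 members rose at 0.3 µM, 3 of 8 rose at 3 µM and none was called lower at either dose, where 26.9% and 24.3% of all genes tested rose and 31.9% and 31.4% fell. Those that rose were KMT2A, KMT2B, KMT2C and KMT2D. They encode the MLL-type enzymes that methylate H3K4 at promoters (KMT2A, KMT2B) and enhancers (KMT2C, KMT2D). Counts out of 8 members are too small to weigh against the shares of all genes.

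KMT2A lies on chr11:118436464-118526832 (GRCh38, plus strand). Across the 8 DMSO libraries it had 29.1 to 56.1 CPM (median 39.2). At 0.3 µM it had 291, 246, 113 and 212 CPM, and at 3 µM 139.5, 121, 34.1 and 181 CPM, in NCI-H1650, NCI-H520, Hs 936.T and A375 in that order. All 4 libraries at 0.3 µM lay above all 8 DMSO libraries, whereas at 3 µM the Hs 936.T library lay within the DMSO range. The log2 change was 2.27 ± 0.17 at 0.3 µM (SE; adjusted p = 5.1e-14) and 1.43 ± 0.22 at 3 µM (adjusted p = 9.5e-07). These counts rest on 274 footprints at 0.3 µM and 119 at 3 µM.

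KMT2B, on chr19:35718019-35738878, had 17.7 to 39.8 CPM with DMSO (median 28.7). It had 125, 66.2, 51 and 106 CPM at 0.3 µM and 63.4, 47.5, 31.3 and 66.0 CPM at 3 µM in the same order of lines. The 0.3 µM libraries lay above all DMSO libraries, and the 3 µM libraries overlapped them through Hs 936.T alone. The log2 change was 1.65 ± 0.20 (SE; adjusted p = 1.9e-09) at 0.3 µM and 0.97 ± 0.27 (adjusted p = 0.0019) at 3 µM; without the A375 library at 3 µM the second was 0.65, with an adjusted p of 0.11.

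KMT2D, on chr12:49018975-49059774, had 38 to 64.1 CPM with DMSO (median 49.9). At 0.3 µM it had 67.5 CPM in NCI-H1650, 93.5 CPM in NCI-H520, 171 CPM in Hs 936.T and 153 CPM in A375. At 3 µM it had 63.4 and 69.4 CPM in the lung lines and 136 and 132 CPM in the melanoma lines. All 0.3 µM libraries were above all DMSO libraries, and the melanoma lines stood well above the lung lines at both doses. The log2 change over lines was 1.49 ± 0.18 at 0.3 µM (SE; adjusted p = 2.1e-08) and 1.19 ± 0.22 at 3 µM (adjusted p = 2.5e-05). KMT2C had a log2 change of 1.07 ± 0.19 at 0.3 µM (adjusted p = 3.4e-06) and of 0.36 ± 0.25 at 3 µM (adjusted p = 0.21). The other family members, KMT2E, SETD1A, SETD1B and SETD7, lay between -0.62 and 0.17 at 0.3 µM and between -0.36 and 0.62 at 3 µM, and none was called.

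Of the 4 tested H3K9 methyltransferases, 2 rose and none was called lower at each dose, a count too small to set against the shares of all genes: EHMT1 (GLP) and EHMT2 (G9a), which form the heterodimer that mono- and dimethylates H3K9, rose at both doses. EHMT1 had 28.9 to 57.2 CPM with DMSO (median 43.3), 46.8, 101, 49.4 and 75 CPM at 0.3 µM and 76.1, 117, 56.9 and 94.7 CPM at 3 µM. At 3 µM only the Hs 936.T library fell within the DMSO range, by a small margin. The log2 change was 0.63 ± 0.19 at 0.3 µM (SE; adjusted p = 0.0040) and 0.98 ± 0.20 at 3 µM (adjusted p = 5.3e-05); the first missed the threshold without the NCI-H520 library at 0.3 µM (0.49, adjusted p = 0.052). EHMT2, with the highest CPM of this family averaged over the DMSO libraries, changed by 0.52 ± 0.17 (adjusted p = 0.0076) and 0.66 ± 0.18 (adjusted p = 0.0023). It was higher in NCI-H520, Hs 936.T and A375 at both doses. In NCI-H1650 it had 44.8 and 37.1 CPM with DMSO, 15.6 CPM at 0.3 µM from 3 footprints and 25.4 CPM at 3 µM from 2 footprints. The rise at 0.3 µM also missed the threshold without the NCI-H520 library (0.40, adjusted p = 0.062) or without the Hs 936.T library (0.47, adjusted p = 0.068). SETDB1 and SUV39H1, which trimethylate H3K9, had changes of 0.32 to 0.45 across both doses and were not called.

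Among the H3K27 and H3K36 methyltransferases no member rose. EZH2 fell by 0.48 on the log2 scale at 0.3 µM (SE 0.21; adjusted p = 0.042) and had -0.02 at 3 µM; without the Hs 936.T library at 0.3 µM the change was -0.15 (adjusted p = 0.65), and without either Hs 936.T DMSO library it was -0.43 or -0.49 (adjusted p = 0.093 and 0.055). NSD3 is an H3K36 dimethylase; its footprints were 12.8 to 69.2 CPM with DMSO (median 32.2). It had 0, 11.7, 15.4 and 2.59 CPM at 0.3 µM, and 0, 11, 14.2 and 8.61 CPM at 3 µM, in NCI-H1650, NCI-H520, Hs 936.T and A375. In each line both RocA libraries lay below both DMSO libraries. A count of 0 in NCI-H1650 allows up to 3 counts, or 15.6 CPM at 0.3 µM and 38 CPM at 3 µM, and these RocA values rest on 14 and 11 footprints over the lines. The log2 change was -1.87 ± 0.36 at 0.3 µM (SE; adjusted p = 1.7e-05) and -1.79 ± 0.40 at 3 µM (adjusted p = 0.00019). Its paralogs changed less: NSD2 had -0.49 ± 0.22 at 0.3 µM (adjusted p = 0.059) and -0.59 ± 0.25 at 3 µM (adjusted p = 0.045). The NSD2 call ended without any of 5 libraries, with -0.37 and an adjusted p of 0.34 without NCI-H520 at 3 µM. NSD1 had -0.27 ± 0.23 and -0.51 ± 0.27, neither called. NSD1, which had the highest CPM of the family averaged over the DMSO libraries, had 16.1 to 113 CPM with DMSO, 20.1 to 62.3 CPM at 0.3 µM and 5.69 to 58.5 CPM at 3 µM. SETD2, the H3K36 trimethylase, was not called at either dose.

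**Figure D3:**
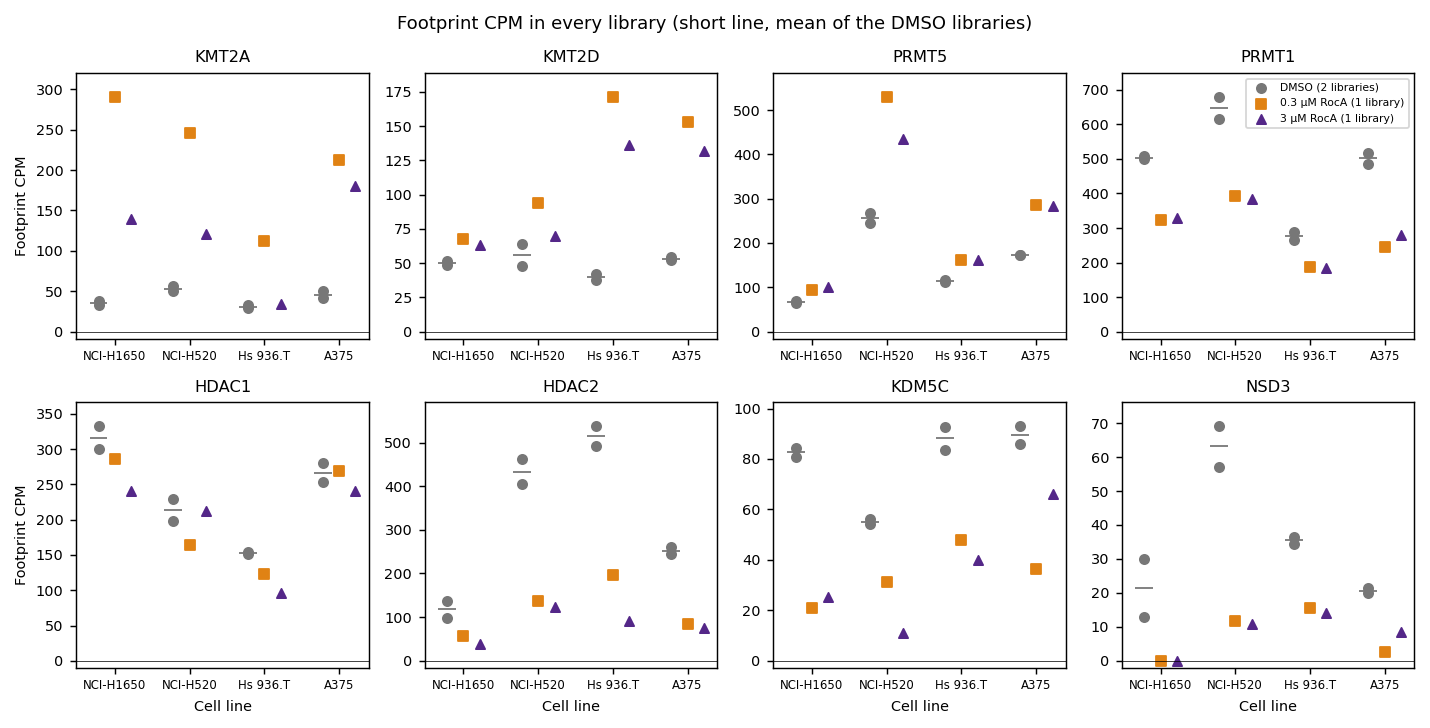
Footprint CPM in every library for 8 members, with the DMSO libraries as circles, 0.3 µM as squares and 3 µM as triangles, by cell line. KMT2A, KMT2D and PRMT5 lie higher with RocA in each line, and PRMT1, HDAC2, KDM5C and NSD3 lower. HDAC1 lies below both DMSO libraries at both doses in NCI-H1650 and Hs 936.T alone.

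The methyltransferases of H4K20 fell in part. KMT5B, which makes H4K20 dimethylation, had 7.89 to 38.6 CPM with DMSO (median 19.7), 15.6, 3.90, 10.8 and 5.17 CPM at 0.3 µM and 0, 7.31, 0 and 2.87 CPM at 3 µM. At 3 µM the values rest on 3 footprints in all, and the counts of 0 in NCI-H1650 and Hs 936.T allow up to 38 and 8.53 CPM, which overlap the DMSO values. The change was -0.98 ± 0.41 at 0.3 µM (SE; adjusted p = 0.040) and -2.57 ± 0.66 at 3 µM (adjusted p = 0.00095). The first missed the threshold when any of 5 libraries was left out, with log2 changes of -0.74 to -0.94, and most without the A375 library at 0.3 µM (adjusted p = 0.19). KMT5A, which makes H4K20 monomethylation, had 16.5 to 48.0 CPM with DMSO, 31.2, 19.5, 6.18 and 20.7 CPM at 0.3 µM and 25.4, 43.9, 14.2 and 48.8 CPM at 3 µM. Its change was -0.98 ± 0.29 at 0.3 µM (adjusted p = 0.0034) and 0.02 ± 0.26 at 3 µM. DOT1L, the H3K79 methyltransferase, had 0.07 ± 0.28 and -0.32 ± 0.34, and was not called.

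Among the other SETD genes, SETD6, a lysine methyltransferase of NF-kappa-B RELA, rose by 0.91 ± 0.25 at 0.3 µM (log2, SE; adjusted p = 0.0016) and 0.90 ± 0.28 at 3 µM (adjusted p = 0.0059; 0.68, adjusted p = 0.099, without the A375 library at 3 µM). SETD3, the actin histidine methyltransferase with the highest mean CPM of the group under DMSO, had -0.07 and -0.11 and was not called. SETD5 had 13.6 to 27.6 CPM with DMSO (median 19.6), 0, 19.5, 9.27 and 7.76 CPM at 0.3 µM and 38, 25.6, 34.1 and 28.7 CPM at 3 µM. Every line was listed below its DMSO mean at 0.3 µM and above it at 3 µM, on 14 and 32 footprints, with a count of 0 in NCI-H1650 at 0.3 µM that allows up to 15.6 CPM. The changes were -0.92 ± 0.39 (SE; adjusted p = 0.038) and 0.74 ± 0.32 (adjusted p = 0.043), and each lost its call under several alternatives: without the NCI-H1650, Hs 936.T or A375 library at 0.3 µM the first was -0.65, -1.02 and -0.90 (adjusted p = 0.16, 0.078 and 0.088), and without any of 10 libraries the second was 0.52 to 0.71 (adjusted p up to 0.28).

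Of 14 tested lysine demethylases, 1 rose and 4 fell at 0.3 µM, and the 28.6% that fell lie below the 31.9% of all genes. At 3 µM none rose and 8 fell, which is 57.1% of the family, against 31.4% of all genes. Of those that fell at 3 µM, KDM3A and KDM5C alone kept their call in every alternative. The calls of KDM1B, KDM2A, KDM3B, KDM4B, KDM4C and KDM6A could each be ended by leaving out a single library. The median log2 change of the family was -0.28 at 0.3 µM and -0.87 at 3 µM. At 0.3 µM KDM5C, a demethylase of H3K4, fell by 1.11 on the log2 scale (SE 0.21; adjusted p = 1.1e-05), and at 3 µM by 1.01 (SE 0.23; adjusted p = 0.00025). It had 54.0 to 93.1 CPM with DMSO (median 84.0), 20.8, 31.2, 47.9 and 36.2 CPM at 0.3 µM and 25.4, 11, 39.8 and 66.0 CPM at 3 µM. The 0.3 µM libraries lay below all DMSO libraries, and at 3 µM the A375 library did not. Its paralogs differed: KDM5A had -0.27 ± 0.18 and 0.01 ± 0.20 and was not called, and KDM5B had 0.37 ± 0.14 at 0.3 µM (adjusted p = 0.024, and up to 0.13 when any of 6 libraries was left out) and -0.17 ± 0.18 at 3 µM.

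KDM6A (UTX), a demethylase of H3K27, had 12.8 to 42.3 CPM with DMSO (median 17.0), 10.4, 0, 7.72 and 5.17 CPM at 0.3 µM and 0, 3.65, 19.9 and 0 CPM at 3 µM. The 0.3 µM libraries lay below all DMSO libraries, on 9 footprints. The change was -1.64 ± 0.48 at 0.3 µM (SE; adjusted p = 0.0029) and -1.20 ± 0.53 at 3 µM (adjusted p = 0.048). The second lost its call when any of 10 libraries was left out, and fell to -0.66 (adjusted p = 0.33) without the A375 library at 3 µM. KDM6B, its paralog, had -0.62 ± 0.46 and -0.83 ± 0.56 and was not called. KDM5C and KDM6A have close relatives on the Y chromosome, and how reads that match both were counted is unknown.

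KDM2A, a demethylase of H3K36, had 16.5 to 95.8 CPM with DMSO (median 60.7), 20.8, 15.6, 17.0 and 18.1 CPM at 0.3 µM and 63.4, 25.6, 17.1 and 11.5 CPM at 3 µM. It was low in every RocA library of NCI-H520 and A375, and in Hs 936.T it stood at its DMSO level of 17.3 CPM at both doses. The change was -1.37 ± 0.29 (SE; adjusted p = 7e-05) and -1.18 ± 0.32 (adjusted p = 0.0015); without the A375 library at 3 µM the second was -0.70 (adjusted p = 0.10). Its paralog KDM2B had 0.17 ± 0.29 and 0.22 ± 0.33. KDM3A and KDM3B, demethylases of H3K9, were not called at 0.3 µM (-0.30 ± 0.18 and -0.05 ± 0.15). At 3 µM KDM3A fell by 1.26 (SE 0.25; adjusted p = 3.3e-05) and KDM3B by 0.62 (SE 0.19; adjusted p = 0.0048; without the Hs 936.T library at 3 µM, -0.47 and adjusted p = 0.085). KDM1B fell by 1.06 at 0.3 µM (SE 0.43; adjusted p = 0.034) and 2.0 at 3 µM (SE 0.63; adjusted p = 0.0063). Its first call ended without the NCI-H1650, NCI-H520 or A375 library at 0.3 µM (-1.02, -0.88 and -0.79; adjusted p = 0.057, 0.085 and 0.14), and its second without Hs 936.T at 3 µM (-2.01; adjusted p = 0.059). KDM1A, its paralog, with the highest mean CPM of the demethylases under DMSO, had -0.21 ± 0.13 and -0.22 ± 0.14 and was not called, on 424 footprints with RocA. KDM4B and KDM4C fell at 3 µM by 1.43 (SE 0.52; adjusted p = 0.020) and 0.91 (SE 0.40; adjusted p = 0.049). KDM4B was not called without NCI-H520 at 3 µM (-1.14; adjusted p = 0.18), and KDM4C without any of 9 libraries, with -0.67 (adjusted p = 0.27) without A375 at 3 µM.

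The arginine methyltransferases split between PRMT1 and PRMT5, the 2 with the highest mean CPM under DMSO. PRMT1, on chr19, had 504 ± 6.82, 648 ± 45.0, 276 ± 16.7 and 502 ± 22.1 CPM with DMSO in NCI-H1650, NCI-H520, Hs 936.T and A375 (SD, n = 2 each). It had 322, 394, 188 and 246 CPM at 0.3 µM and 329.6, 384, 185 and 281 CPM at 3 µM. In each line both RocA libraries lay below both DMSO libraries, by a similar factor at both doses. PRMT1 changed by -0.74 ± 0.11 at 0.3 µM (SE; adjusted p = 1.8e-07) and -0.71 ± 0.12 at 3 µM (adjusted p = 1.6e-06). PRMT5, on chr14, had 67.5 ± 3.11, 256 ± 16.3, 114 ± 3.33 and 172 ± 0.10 CPM with DMSO in those lines (SD, n = 2 each), 93.5, 530.0, 161 and 285 CPM at 0.3 µM and 101, 435, 162 and 284 CPM at 3 µM. In each line both RocA libraries lay above both DMSO libraries. PRMT5 changed by 0.73 ± 0.12 (SE; adjusted p = 7.8e-07) and 0.66 ± 0.13 (adjusted p = 2.4e-05).

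The ratio of PRMT5 to PRMT1 footprints per codon within a library does not depend on library scaling. With DMSO it was 0.072 to 0.075, 0.216 to 0.217, 0.22 to 0.23 and 0.18 to 0.19 in NCI-H1650, NCI-H520, Hs 936.T and A375. It was 0.16, 0.74, 0.47 and 0.63 at 0.3 µM and 0.17, 0.62, 0.48 and 0.55 at 3 µM in those lines, above both DMSO ratios each time. The pair was chosen after its values were seen, so the ratio is a description. PRMT9 fell at 0.3 µM (-1.14 ± 0.39; adjusted p = 0.011), a call that ended without the A375 library at 0.3 µM (-0.89, adjusted p = 0.097). PRMT2, PRMT3 and PRMT7 were not called; PRMT3 had 0.40 ± 0.18 (adjusted p = 0.052) and 0.20 ± 0.20.

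The class I deacetylases HDAC1 and HDAC2 behaved differently despite sharing their complexes. HDAC2, on chr6:113933028-114011308 (minus strand), had 138 and 98.6 CPM with DMSO in NCI-H1650, 405 and 462 in NCI-H520, 538 and 491 in Hs 936.T and 261 and 244 in A375. At 0.3 µM it had 57.1, 136, 196 and 85.4 CPM, and at 3 µM 38, 124, 91.0 and 74.6 CPM in those lines. Both RocA libraries lay below both DMSO libraries in every line. The log2 change was -1.46 ± 0.14 at 0.3 µM (SE; adjusted p = 3.7e-12) and -2.03 ± 0.17 at 3 µM (adjusted p = 3.1e-14), on 206 and 95 footprints with RocA. HDAC1 had 152 to 333 CPM with DMSO, 124 to 286 CPM at 0.3 µM and 96.7 to 241 CPM at 3 µM. Pooled over lines its groups overlapped, as those of HDAC2 did. Within lines, both RocA libraries lay below both DMSO libraries for HDAC1 in NCI-H1650 and Hs 936.T, but not in NCI-H520 or A375. The changes of HDAC1 were -0.19 ± 0.12 (SE; adjusted p = 0.18) and -0.26 ± 0.14 (adjusted p = 0.093).

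Within each library the ratio of HDAC2 to HDAC1 footprints per codon was 0.29 to 0.45, 1.98 to 2.01, 3.20 to 3.43 and 0.92 to 0.95 with DMSO in NCI-H1650, NCI-H520, Hs 936.T and A375. It was 0.20, 0.82, 1.57 and 0.31 at 0.3 µM and 0.16, 0.58, 0.93 and 0.31 at 3 µM in those lines, below both DMSO ratios each time. This pair too was chosen after its values were seen. HDAC3, the deacetylase of the NCoR and SMRT complexes, rose at 0.3 µM (0.74 ± 0.22; adjusted p = 0.0030) and had -0.21 ± 0.30 at 3 µM.

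Of the class II and IV deacetylases, HDAC4 had the highest mean CPM under DMSO, with 4.98 to 85.8 CPM across libraries (median 23.2). It had 5.19, 39.0, 43.2 and 7.76 CPM at 0.3 µM and 0, 43.9, 45.5 and 14.3 CPM at 3 µM, and was not called (-0.31 ± 0.29 and -0.26 ± 0.32). HDAC9 fell at 0.3 µM (-1.42 ± 0.54; adjusted p = 0.022), a call that rests on A375, since without that library at 0.3 µM the change was -0.63 (adjusted p = 0.38). HDAC5 and HDAC7 were not called. HDAC11, the class IV enzyme, rose at 0.3 µM (1.27 ± 0.35; adjusted p = 0.0018; without the Hs 936.T library 0.95, adjusted p = 0.098). HDAC10 had 0.16 ± 0.34 at 0.3 µM and fell at 3 µM (-1.51 ± 0.57; adjusted p = 0.021); without the NCI-H520 or the A375 library at 3 µM it was -1.38 or -1.11 (adjusted p = 0.066 and 0.12).

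The sirtuins moved in different directions. SIRT5, the mitochondrial desuccinylase, had 2.64 to 25.6 CPM with DMSO (median 15.1), 0, 3.90, 3.09 and 0 CPM at 0.3 µM and 12.7, 7.31, 0 and 2.87 CPM at 3 µM. Only 3 and 4 footprints lie behind the RocA values. SIRT5 passed the filter on low counts through its DMSO libraries, where it was higher. At 0.3 µM the counts of 0 in NCI-H1650 and A375 allow up to 15.6 and 7.76 CPM. These lie above the DMSO values of the same lines, so neither line can show a fall at that dose. The change was -2.70 ± 0.63 at 0.3 µM (SE; adjusted p = 0.00028) and -1.79 ± 0.63 at 3 µM (adjusted p = 0.014; -0.99 and 0.24 without the Hs 936.T library at 3 µM). SIRT3, the main mitochondrial deacetylase, had 0.62 ± 0.44 at 0.3 µM and rose at 3 µM by 1.24 ± 0.44 (adjusted p = 0.014; 0.65 and 0.31 without the Hs 936.T library). SIRT1, a nuclear deacetylase, had -0.08 ± 0.26 at 0.3 µM and fell by 1.06 at 3 µM (SE 0.35; adjusted p = 0.0092; -0.84 and 0.060 without the Hs 936.T library). Averaged over the 8 DMSO libraries its CPM was the highest of the sirtuins, at 32.0 against 28.9 for SIRT6, though SIRT6 was higher per coding length, at 83.6 against 43.4 CPM per 1000 codons. SIRT1 had 16.5 to 54.0 CPM with DMSO, 20.8, 42.9, 17.0 and 36.2 CPM at 0.3 µM and 0, 29.2, 2.84 and 20.1 CPM at 3 µM. SIRT2, SIRT6 and SIRT7 were not called.

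**Figure D4:**
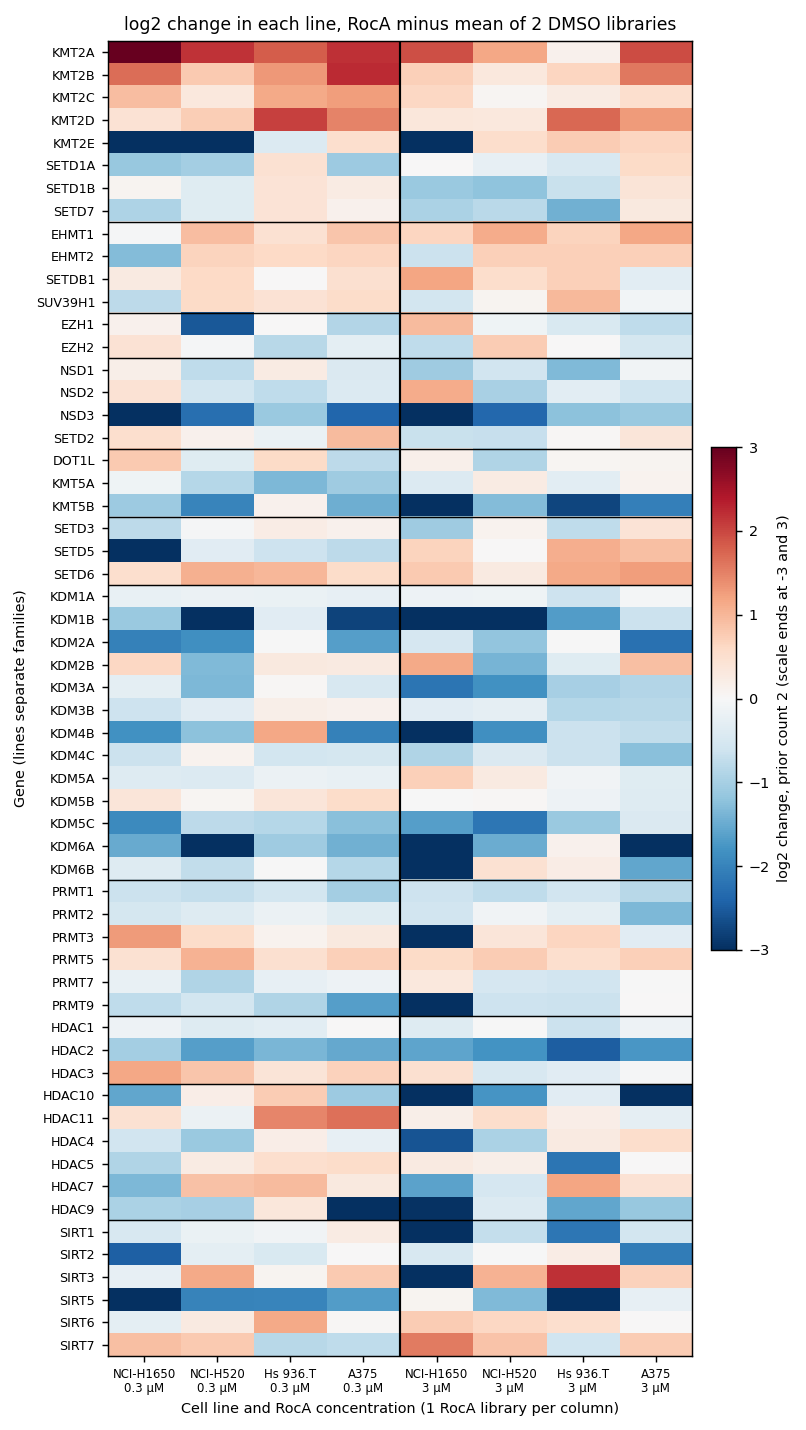
log2 change of each member in each line, RocA minus the mean of the 2 DMSO libraries (prior count 2), with 0.3 µM in the left 4 columns and 3 µM in the right 4. Red is higher and blue lower with RocA. The rows of KMT2A, KMT2B, KMT2D and PRMT5, among others, are red in all 8 columns. Those of HDAC2, NSD3 and PRMT1, among others, are blue in all 8 columns, while many rows change sign between lines or doses.

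Between the doses, 2 members were called in the comparison of 3 µM with 0.3 µM. SETD5 was higher at 3 µM (log2 difference 1.66 ± 0.47, SE; adjusted p = 0.036) and KMT2A was lower (-0.84 ± 0.22; adjusted p = 0.024). That is 1.69% of the tested members in each direction, with 0.842% of all genes tested higher, 2.4% lower and 3.24% in either direction. The SETD5 call ended when any RocA library of NCI-H1650, Hs 936.T or A375 was left out, and most without Hs 936.T at 3 µM (1.43, adjusted p = 0.21). The KMT2A call ended when any of 10 libraries was left out, with -0.61 (adjusted p = 0.17) without Hs 936.T at 3 µM and -0.70 (adjusted p = 0.27) without NCI-H520 at 3 µM.

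The response to RocA, shared by both doses, differed between lines for 2 of 59 tested members (3.39%), KMT2D and KDM4B, with 3.41% of all genes tested called. With 1 library per line and dose, the 2 RocA libraries of a line stood in for replicates of its response. This F test also gave false calls above the nominal level in a single simulated data set, at 6.84% of its calls. It found 39.0% of log2 differences of 1 planted in A375 and 76.6% of those of 2. The RocA libraries of NCI-H1650 are shallower than those of A375, so this recovery need not hold for that line. Few calls therefore do not show that the lines responded alike. KMT2D had log2 changes of 0.43 and 0.74 at 0.3 µM, and 0.34 and 0.32 at 3 µM, in NCI-H1650 and NCI-H520. In Hs 936.T and A375 they were 2.06 and 1.5 at 0.3 µM, and 1.73 and 1.29 at 3 µM (adjusted p = 0.0031). KDM4B, an H3K9 and H3K36 demethylase, differed too (adjusted p = 0.024). At 0.3 µM it was above its DMSO level in Hs 936.T, with 34 CPM against 13.4 and 15.4 with DMSO. It was below that level in the other 3 lines, with 5.19, 23.4 and 2.59 CPM. At 3 µM it was listed below its DMSO level in all 4 lines. It had 0, 14.6, 8.53 and 8.61 CPM there in NCI-H1650, NCI-H520, Hs 936.T and A375. The count of 0 in NCI-H1650 allows up to 38 CPM. Without the Hs 936.T library at 0.3 µM the adjusted p was 0.92 for KDM4B and 0.050 for KMT2D, and neither was called. KDM4B also lost its call without Hs 936.T DMSO replicate 1, NCI-H1650 at 0.3 µM or NCI-H520 at 0.3 µM (adjusted p = 0.073, 0.051 and 0.13).

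Changes were also set beside coding length. The 6 tested members of 2000 codons or more, KMT2A, KMT2B, KMT2C, KMT2D, NSD1 and SETD2, had a median log2 change of 1.28 at 0.3 µM and 0.66 at 3 µM, while the 276 genes of that length had 0.10 and -0.17. The KMT2 genes make that median, since NSD1 had -0.27 and -0.51 and SETD2 had 0.44 and -0.04 at the 2 doses. Members of 1000 to 1999 codons (n = 24) had medians of -0.30 and -0.34, near the -0.24 and -0.40 of all 1087 genes of that length. Over all 58 members the rank correlation of length with the change was 0.10 at either dose (Spearman, description over genes, which are not independent replicates).

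RocA is known for purine-rich 5′ UTRs, so the longest run of A and G, of any length, was located on the sense strand of the annotated 5′ UTR of the transcript with the counted coding length. It was found for 54 tested members and 7604 of 7838 tested genes; which start sites these cells use was not measured. The median longest run was 8.5 bases in members and 8 in all genes. Windows of up to 30 bases around the run are shown, with the longest purine run in capitals (GENCODE 29, GRCh38). KMT2A and KMT2C come first, then paralogs or relatives with unlike changes, and SIRT5, the largest estimated fall at 0.3 µM.
KMT2A: cctctcgctgcttcacttcacGGGGcgaac
KMT2C: ggctgagccGGGGAGGAGGAAcccgagcag
HDAC1: gagccgcgggcGGGAGGGcggacggaccga
HDAC2: agcagcagcAGGAGGAGGAGcccggtggcg
PRMT5: aatcccggcgtggacagcgcGAGGAGAAAG
PRMT1: ggggagtGAGGAGAAAGGGGGGGtcttggc
KDM2B: AAAAGttaggcagtccttataggtatggaa
KDM2A: gttcctAAGGAGGAAGAGGAAGGcagccct
KDM5A: gccGGGGAAGAGAAGAAGAAGGAAAGGcca
KDM5C: ttgtggtgtGGGGAGGGGAGAcgctgacaa
SIRT5: aaaacctacAGAAGAAGAAAAtaattttct

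The KMT2A window lies at chr11:118436483-118436512 (plus strand), in a 5′ UTR of 49 bases whose longest run is 4 bases; 94.5% of genes have a run at least as long. The HDAC2 window lies at chr6:113970927-113970956 (minus strand) and holds a run of 11 bases that ends 28 bases before the start codon, a length that 24.9% of genes reach. HDAC1, at chr1:32292112-32292141 (plus strand), has a run of 7 bases, which 64.8% of genes reach. PRMT1, at chr19:49677222-49677251 (plus strand), has 16 bases (6.22% of genes), and PRMT5, at chr14:22929362-22929391 (minus strand), has 10 bases that end at the start codon (32.8%). KDM2A, at chr11:67121246-67121275 (plus strand), has 17 bases (4.85%), and KDM2B, at chr12:121580955-121580984 (minus strand), has 5 (87.9%). In these pairs the gene with the longer run was the one that fell. The pairs were shown because their changes were unlike, so this order carries no weight of its own.

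Other members did not follow that order. KDM5A, at chr12:389382-389411 (minus strand), has a run of 24 bases, which 1.24% of genes reach, and was not called at either dose, while KDM5C, at chrX:53225203-53225232 (minus strand), with 12 bases (18.1%), fell at both. KMT2C, at chr7:152435868-152435897 (minus strand), also has 12 bases and rose at 0.3 µM. SIRT5, at chr6:13579477-13579506 (plus strand), again with 12 bases, had the largest estimated fall at that dose, on 3 footprints. Over the 54 members the rank correlation of run length with log2 change was -0.36 at 0.3 µM and -0.41 at 3 µM, and over all 7604 genes it was -0.39 and -0.34 (Spearman, descriptions across genes, which share the same libraries). At 0.3 µM members with runs of 14 to 19 bases (n = 7) had a median change of -0.74, and all 612 genes with such runs -0.59; for 11 to 13 bases (n = 7) the medians were -1.11 and -0.52. In other classes the members stood apart from all genes in sign or size, with -0.30 against 0.21 for 5 to 6 bases (n = 8), 0.16 against -0.19 for 7 to 8 (n = 15) and -0.051 against -0.41 for 9 to 10 (n = 11). At the ends they had 0.29 against 0.70 for 1 to 4 bases (n = 4). For 20 or more (n = 2) they had -0.28 against -0.74. At 3 µM the medians of members and all genes were close for 7 to 8 bases (-0.26 and -0.29). They were also close for 1 to 4 bases (0.70 and 0.65), but of opposite sign for 5 to 6 bases (-0.12 and 0.10). Purine content, 5′ UTR length and the chosen transcript go together, and their parts in these changes were not tested.

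**Figure D5:**
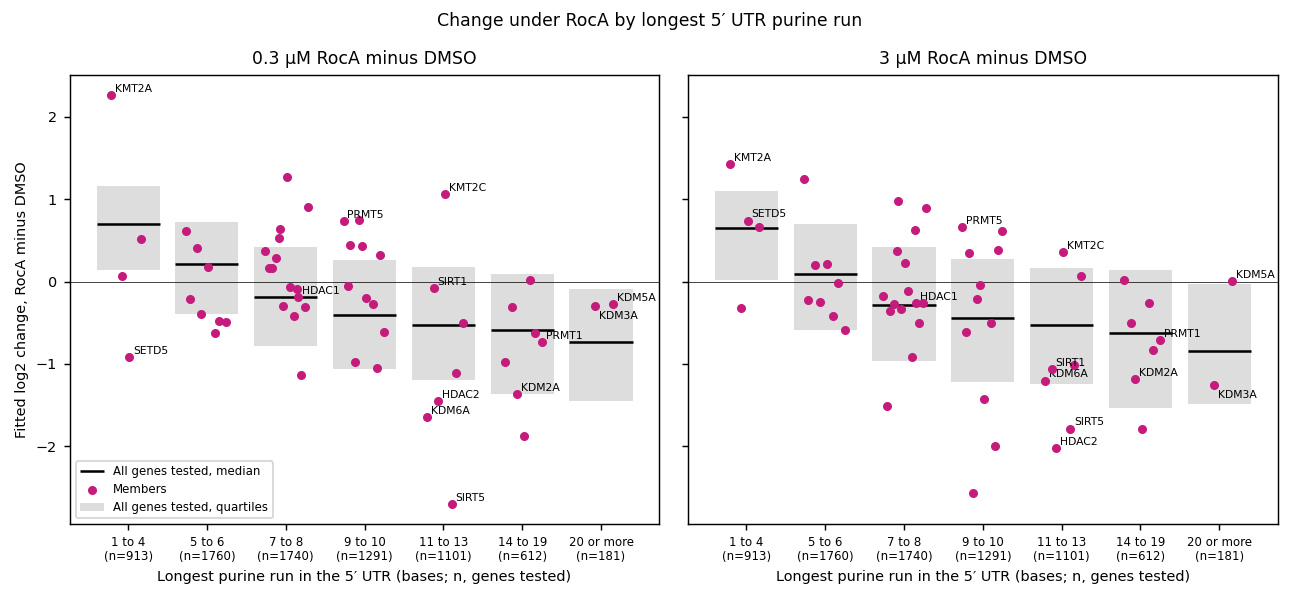
Fitted log2 change, RocA minus DMSO, against the longest 5′ UTR purine run in bases, at 0.3 µM (left) and 3 µM (right). Grey bars give the quartiles and black lines the medians of all genes tested in each class, and points are the 54 members. The medians of all genes go from 0.70 for runs of 1 to 4 bases to -0.74 for 20 or more at 0.3 µM, with KMT2A above and SIRT5 below the quartiles of their classes.

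The partners of these enzymes were taken from 8 lists of other chromatin genes, to be read against all genes tested, of which 26.9% rose and 31.9% fell at 0.3 µM, and 24.3% rose and 31.4% fell at 3 µM. Of 8 tested partners of Polycomb repressive complex 2, 1 rose and 3 fell at 0.3 µM, and 1 rose and 5 fell at 3 µM. RBBP7 and RBBP4, histone-binding paralogs shared by that complex and the HDAC1/HDAC2 complexes, went apart: RBBP7 fell by 3.10 (SE 0.18; adjusted p = 8.2e-19) and 3.89 (SE 0.23; adjusted p = 7.4e-19), and RBBP4 rose by 0.41 ± 0.10 (adjusted p = 0.00054) and 0.32 ± 0.11 (adjusted p = 0.011). Of 24 tested partners of the deacetylase complexes, 5 rose and 9 fell at 0.3 µM, and 3 rose and 11 fell at 3 µM. SIN3B, a scaffold for HDAC1 and HDAC2, rose (1.49 ± 0.15 and 1.29 ± 0.17; adjusted p = 4.3e-12 and 1.5e-08), MTA2 of NuRD fell at 0.3 µM (-1.84 ± 0.20; adjusted p = 4.8e-11) and TBL1XR1 of the NCoR complex fell at 3 µM (-2.90 ± 0.29; adjusted p = 1.4e-11).

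Of 11 tested partners of the COMPASS (MLL/SET1) complexes, 3 rose and 3 fell at 0.3 µM, and 2 rose and 3 fell at 3 µM. BOD1L1, a cofactor of SETD1A, rose (2.09 ± 0.13 and 1.67 ± 0.16, adjusted p = 7.9e-18 and 2.3e-12). RBBP5, a core subunit of the COMPASS complexes, fell at 0.3 µM (-2.36 ± 0.29, adjusted p = 2e-09), and HCFC1 fell at 3 µM (-2.52 ± 0.22, adjusted p = 1.8e-13). Of 12 tested histone acetyltransferases, 2 rose and 6 fell at 0.3 µM, and 1 rose and 7 fell at 3 µM; KAT8, the H4K16 acetyltransferase, rose (0.73 ± 0.18 and 0.96 ± 0.19; adjusted p = 0.00045 and 2.7e-05), and NCOA3 fell (-2.48 ± 0.31 and -3.05 ± 0.42; adjusted p = 2.7e-09 and 4.4e-08).

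Of 14 tested histone methylation enzymes outside the symbol rule, 3 rose and 5 fell at each dose, with SMYD5 rising (1.38 ± 0.16 and 1.26 ± 0.18; adjusted p = 2.5e-10 and 8.7e-08) and the demethylase PHF8 falling (-1.86 ± 0.39 and -1.56 ± 0.42; adjusted p = 7e-05 and 0.0014). Of 16 tested readers of methylated histones and heterochromatin genes, none rose and 6 fell at 0.3 µM, and 2 rose and 6 fell at 3 µM. DAXX, a histone H3.3 chaperone, fell at 0.3 µM (-2.17 ± 0.34; adjusted p = 5.4e-07). PHF6 fell (-1.98 ± 0.25; adjusted p = 6.5e-09) and PPHLN1 of the HUSH complex rose (0.63 ± 0.16; adjusted p = 0.00079) at 3 µM. Of 5 tested DNA methylation genes, 1 rose and 1 fell at each dose: DNMT1, the maintenance methyltransferase, rose (1.09 ± 0.11 and 0.72 ± 0.12; adjusted p = 5.8e-12 and 1.6e-06), and TDG fell (-2.17 ± 0.24 and -2.39 ± 0.28; adjusted p = 1.1e-10 and 5.3e-10). Of 8 tested genes that supply S-adenosylmethionine or NAD, 2 rose and 4 fell at each dose, with MTRR, which reactivates methionine synthase, rising (1.13 ± 0.15 and 1.42 ± 0.16; adjusted p = 1.6e-08 and 3e-10). AHCYL1, a relative of S-adenosylhomocysteine hydrolase, fell at 0.3 µM (-1.08 ± 0.16; adjusted p = 2.2e-07), and MTR, methionine synthase itself, fell at 3 µM (-1.71 ± 0.24; adjusted p = 4.3e-08).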

How the data were processed

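Ribosome footprints of 16 libraries were analysed. Per the submitters' processing notes, the authors used CASAVA 1.8, Bowtie2 2.1.0, TopHat2 2.0.9 and the build hg38; no source used here gives the annotation release. The deposited raw counts stand per transcript entry (182398 entries, 88482 of them noncoding and without counts) beside the number of codons counted, which is the coding length less 10.

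Members and lists were chosen with earlier results of these data known. Entries were named by matching runs of neighbouring coding lengths to GENCODE 29 (minimum odds 100), then by searching the entries between named neighbours; decoy genes passed at 0.129% and 0.108% of matches, and 0 of 6985 hidden genes were placed on other entries (154 were not found). The entry with the highest count stood for its gene.

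R 4.3.3 with edgeR 4.0.16 and limma 3.58.1 fitted TMM-scaled counts (filterByExpr, minimum count 10) with the robust quasi-likelihood test, 2-sided, over all 16 libraries with terms for line and dose. Benjamini-Hochberg adjusted p-values under 0.05, over all genes tested, made a call. Response differences between lines used an F test with 7 residual degrees of freedom, in which both RocA libraries of a line stood in for replicates. Levels between lines used an F test over the 8 DMSO libraries. Per-line changes are differences of log2 CPM with a prior count of 2. The text names the 3 largest rises and falls per dose among called members with at least 10 CPM and the same sign in each line, the member of each family with the highest mean CPM under DMSO, members called between doses or lines (5 smallest p), and paralogs. For partner lists it names the largest called rise and fall with at least 10 CPM. Equal DMSO replicate numbers deviated independently across lines (correlations -0.03 to 0.08) and so pair nothing. DMSO replicates differed by more than sampling noise (chi-square per degree of freedom 1.51 to 2.55), and floors of 3 counts cover counting error only. Python 3.11.15, NumPy 2.4.6, pandas 2.3.3, SciPy 1.17.1 and matplotlib 3.10.9 made the tables and plots; fits were tested on simulated data. DESeq2 1.42.0, RLE scaling, no filter, other entries, stricter naming, thinning, omitted libraries or lines and a replicate block were alternatives.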

Additional observations from a re-analysis of the deposited data

Results flagged for a closer look

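In 10 of 116 sets of 4 lines (58 members at each dose) the change in 1 line stood apart from the other 3 by more than Dixon's critical value; chance flags about 1 in 20 such sets. At 0.3 µM the log2 change of EHMT2 was -1.30 in NCI-H1650, on 3 footprints, and 0.60 to 0.67 in the other lines. At 3 µM it was -0.65 in NCI-H1650, on 2 footprints, and 0.71 to 0.72 elsewhere. At 0.3 µM NCI-H1650 also stood apart for SETD5 (-3.89 on 0 footprints, other lines -0.79 to -0.35) and SUV39H1 (-0.79 on 2 footprints, other lines 0.43 to 0.57). At 3 µM it stood apart for KMT2E (-3.0 on 0 footprints, other lines 0.53 to 0.75). Values on 0 footprints depend on the prior count and are no bound.

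NCI-H520 stood apart for PRMT7 (-0.89, other lines -0.25 to -0.15) and KDM4C (0.10, other lines -0.64 to -0.52) at 0.3 µM and for DOT1L (-0.90, other lines 0.06 to 0.15) at 3 µM. Hs 936.T stood apart for SETD1A at 0.3 µM (0.46 on 8 footprints, other lines -1.14 to -1.03) and for HDAC5 at 3 µM (-2.19 on 0 footprints, other lines 0.01 to 0.27). NCI-H1650 at 3 µM was the shallowest library, where 1 footprint is 12.7 CPM; the part of depth in these values was not tested.

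The response to RocA differed between lines for KMT2D (adjusted p = 0.0031) and KDM4B (adjusted p = 0.024), by edgeR's quasi-likelihood F test of the difference itself.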

How the results depend on the processing

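Of 25 members called at 0.3 µM, 14 kept their call in every alternative in which they were tested (HDAC2, KDM2A, KDM5C, KDM6A, KMT2A, KMT2B, KMT2C, KMT2D, KMT5A, NSD3, PRMT1, PRMT5, SETD6 and SIRT5). Of 25 called at 3 µM, 11 did (EHMT1, EHMT2, HDAC2, KDM3A, KDM5C, KMT2A, KMT2D, KMT5B, NSD3, PRMT1 and PRMT5). No called change turned its sign in any alternative. With libraries of a line thinned to equal depth, 39 members were tested instead of 59, of which 7 rose and 6 fell at 0.3 µM and 8 rose and 9 fell at 3 µM; fewer counts are that alternative's own construction. Without A375, 8 fell at 0.3 µM, and without Hs 936.T, 9 fell at 3 µM. Leaving out single libraries gave 9 to 12 rises and 9 to 18 falls at 0.3 µM (9 without A375 at 0.3 µM), 7 to 9 rises and 10 to 18 falls at 3 µM (10 without Hs 936.T at 3 µM), 0 to 1 in each direction between doses, 1 to 3 in response between lines and 50 to 54 between lines under DMSO.

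Between doses, 0 members were higher by DESeq2, which gave SETD5 no adjusted p (3 at an unadjusted p under 0.05), after thinning (2), and without NCI-H1650 (2), Hs 936.T (3) or A375 (3), where the cause was not tested. By edgeR, 0 were lower with the entry of the most codons (10 at an unadjusted p under 0.05), without the libraries labelled NCI-H521 (9), and without NCI-H1650 (9), NCI-H520 (10) or Hs 936.T (5). Response differences were called for 1 member without NCI-H520, 0 without Hs 936.T (5 at an unadjusted p under 0.05) and 0 after thinning (3), by edgeR. The numbers of the DMSO replicates pair nothing, and the fit with the replicate block called 55 members between lines under DMSO, as without it. Under RLE scaling the median of all genes was -0.16 at 0.3 µM, within 0.1 of the value under TMM. The calls of KDM1B, KDM6A, KMT5B, NSD3 and SIRT5 at both doses rest on 3 to 14 footprints with RocA at a dose. So do those of HDAC9, PRMT9 and SETD5 at 0.3 µM and of HDAC10, KDM4B and KDM4C at 3 µM. KDM1B, KDM6A, KMT5B, NSD3 and SIRT5 passed the filter on low counts through their DMSO libraries, where they were higher.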
